A study of Mus musculus with 4 samples.

Results

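The genes described here encode the enzymes that turn prohormones into active peptides, and the small proteins that escort or restrain those enzymes. They were chosen by name: the proprotein convertases Pcsk1, Pcsk2, Pcsk5, Pcsk6 and Furin, the convertase partners Pcsk1n and Scg5, the carboxypeptidases Cpe and Cpd, and the amidating enzyme Pam. These 10 genes, of 26265 named genes on the array, were covered by 14 of its 33697 probes with a gene name. A filter for probes well above background kept 9 of the 10, Pcsk5 being the exception, among 17178 genes tested.

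The samples were pancreatic islets isolated from 8-week-old C57BL/6 mice and held for 24 h in RPMI1640 medium with 5.6 mM glucose. Islets of 2 samples received 30 µM GKA, a glucokinase activator that the labels do not name further, and islets of the 2 control samples received the DMSO vehicle. Nothing in the labels tells separate mice or cultures from repeats of one pool, and a p-value here covers just the spread of these samples, possibly a technical one. Each sample was hybridised to 1 single-colour Agilent array, and all 4 arrays lay on 1 slide.

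Peptide hormones are made as long precursors that enter the endoplasmic reticulum (ER), lose their signal peptide and are packed into secretory granules. There, prohormone convertase 1/3 (Pcsk1) and prohormone convertase 2 (Pcsk2) cut them behind pairs of basic residues, carboxypeptidase E (Cpe) trims those residues off, and Pam amidates the exposed end of some of the products. In beta cells this route yields insulin and C-peptide, and in alpha cells it yields glucagon.

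With GKA, transcripts of Pam, Pcsk1 and Pcsk2 rose and those of Pcsk6 fell, while Scg5, Cpe, Pcsk1n, Cpd and Furin did not pass the test. Pam was 3.93-fold higher and Pcsk1 3.41-fold higher, and Pcsk6 was 1.95-fold lower. Pcsk2 was 1.53-fold higher on 1 of its 2 probes, a call that was lost when any 1 array was left out. The test was limma, with Benjamini-Hochberg adjustment over the 17178 genes, and a gene passed at an adjusted p under 0.05. Of the 9 measured members, 3 rose and 1 fell, against 9.11% of all genes that rose and 8.01% that fell, or 17.1% in either direction. Over single probes, 16.9% of 22139 changed and 8.94% rose. The median log2 fold change of the 9 was 0.27, and that of all genes tested was -0.013. All log2 values below are the processed intensity relative to the 75th percentile of its own array, so a fold change is relative to the bulk of the probes.

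Signs of the weaker differences depended on that scale. The 75th percentile of the intensity was 751 and 755 for vehicle, but 557 and 598 for GKA. On unscaled values all genes had a median of -0.40, and 8.92% of the called genes were higher, against 53.2% on the main scale, 42.8% with median scaling and 5.42% with scaling to the E1A spike-in spots (median of all genes -0.56). The mean log2 signal of the E1A spots was 11.79 and 11.46 with vehicle and 11.72 and 11.85 with GKA. Vehicle replicate 2 stood apart from the other arrays in these spots, which limits the spike-in scale. Between 59.6% and 63.5% of 39429 probes were well above background per array, and no spot was saturated, a count of 0 on each. Vehicle and GKA arrays held separate positions on the slide, and the effects of position and treatment cannot be told apart. The smallest two-sided p of an exact permutation with 2 arrays per group is 0.333, and no such test is given.

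**Figure D1:**
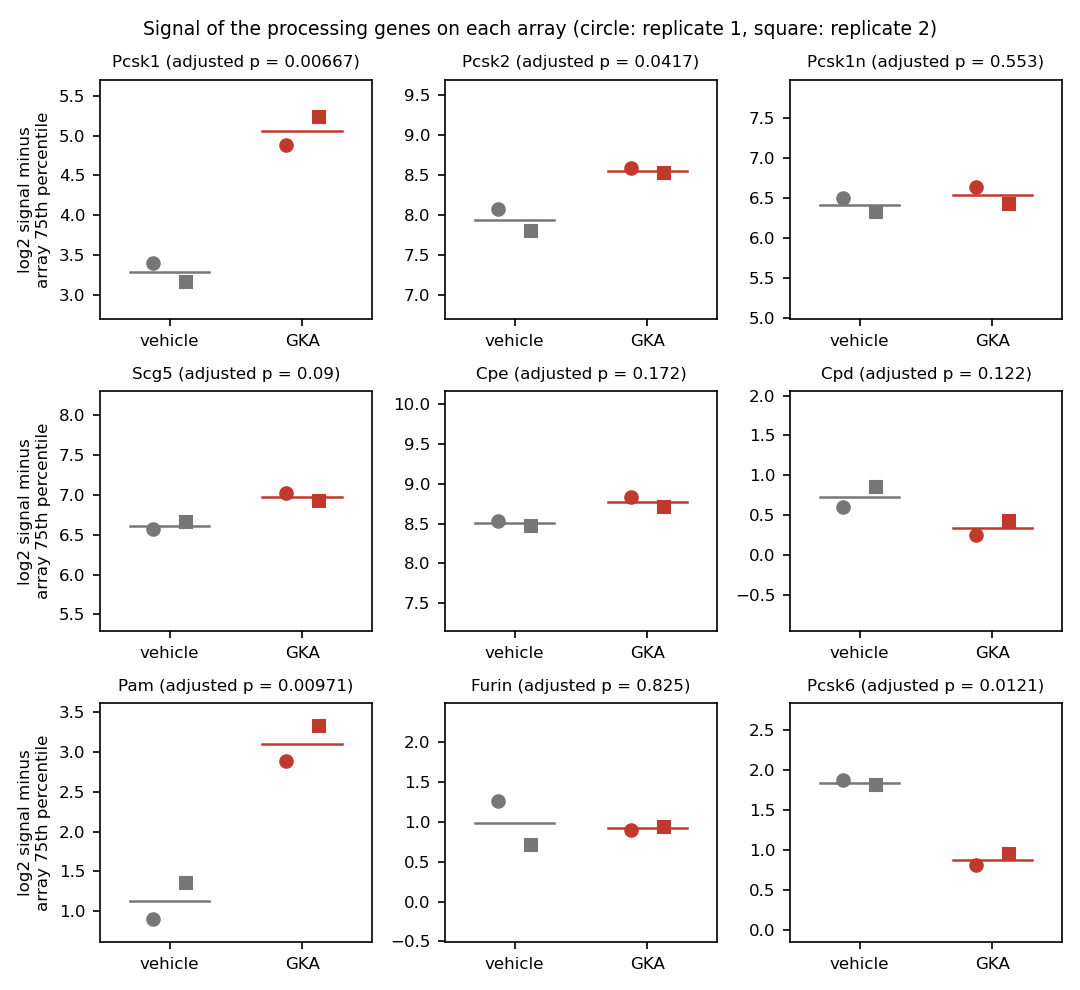
Log2 signal relative to the array's 75th percentile (y axis) for the 9 measured processing genes on the 2 vehicle arrays (grey) and the 2 GKA arrays (red); lines are group means and every panel spans the same range. The GKA arrays lie above both vehicle arrays by a wide gap in Pcsk1 and Pam and below them in Pcsk6, and the groups overlap in Furin and Pcsk1n.

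Among the granule convertases, Pcsk1 encodes the enzyme that makes the first cut in proinsulin. With vehicle its log2 signal was 3.40 and 3.16, and with GKA 4.88 and 5.23, from deposited intensities of 7943 and 6775 against 16423 and 22386. The groups were separated by a gap of 1.48, with spreads of 0.24 and 0.34 within them. The log2 fold change was 1.77 ± 0.17 (SE, n = 2 per group; adjusted p = 0.00667 in limma), with a 95% interval from 1.34 to 2.20. Leaving out any 1 of the 4 arrays left the gene past the threshold, with values from 1.60 to 1.94. The only probe, A_52_P500979, lies on mm9 chromosome 13 at 75269727 to 75269786, plus strand.

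Pcsk1 and the other 3 genes that passed the test are given here with the 250 bases upstream of their RefSeq start sites, on build GRCm38.p6, to let their promoters be compared. The probe positions are on mm9 and are not set against them. Capitals mark TGACG on either strand, the half-site of the cAMP response element (CRE), to which CREB-family factors bind; TGACGTCA, the full element, holds 2 overlapping half-sites.
Pcsk1 (chr13:75089607-75089856, plus strand): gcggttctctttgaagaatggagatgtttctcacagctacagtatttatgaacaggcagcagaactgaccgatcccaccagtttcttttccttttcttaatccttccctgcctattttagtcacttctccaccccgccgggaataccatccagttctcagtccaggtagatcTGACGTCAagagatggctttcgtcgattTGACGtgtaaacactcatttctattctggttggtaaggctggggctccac
Pam (chr1:98095647-98095896, minus strand): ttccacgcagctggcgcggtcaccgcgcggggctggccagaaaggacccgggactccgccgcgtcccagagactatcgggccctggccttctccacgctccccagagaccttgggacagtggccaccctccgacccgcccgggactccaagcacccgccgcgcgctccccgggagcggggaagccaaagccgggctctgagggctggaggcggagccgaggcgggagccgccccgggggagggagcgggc
Pcsk2 (chr2:143545883-143546132, plus strand): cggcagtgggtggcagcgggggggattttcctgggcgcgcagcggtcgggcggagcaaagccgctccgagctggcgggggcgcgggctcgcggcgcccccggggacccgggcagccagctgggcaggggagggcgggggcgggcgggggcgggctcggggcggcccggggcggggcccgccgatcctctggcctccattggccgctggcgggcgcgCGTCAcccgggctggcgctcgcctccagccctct
Pcsk6 (chr7:65861886-65862135, plus strand): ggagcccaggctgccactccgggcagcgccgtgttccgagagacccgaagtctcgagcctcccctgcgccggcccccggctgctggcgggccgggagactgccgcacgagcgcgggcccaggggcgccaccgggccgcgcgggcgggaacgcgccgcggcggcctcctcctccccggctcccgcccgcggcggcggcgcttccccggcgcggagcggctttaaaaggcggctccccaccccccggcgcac

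The Pcsk1 window holds the full TGACGTCA, starting 78 bases before the start site, and a further TGACG starting 50 bases before it. The full element was found, on both strands, in 1.55% of 32851 RefSeq promoter windows of the same length, and TGACG in 17.8%. Of the 11 windows of the 9 members with a RefSeq promoter entry, TGACGTCA was found in the one of Pcsk1 and TGACG in 4, namely those of Pcsk1, Pcsk2, Scg5 and 1 of the 2 start sites of Furin. The Pam and Pcsk6 windows shown have neither. In base content the 4 windows differ: G and C make up 46.8% of the Pcsk1 window, 75.6% of the Pam window, 82.4% of the Pcsk2 window and 81.2% of the Pcsk6 window, against a median of 52.4% over all windows. The GC box GGGCGG, searched on both strands, was found in 9 of the 11 windows and in 32.7% of all windows. Pam has 2 start sites whose windows overlap for most of their length (98095647 to 98095896 and 98095633 to 98095882). Both hold the GC box and are counted among the 9, so these are not separate promoters. The E-box CACGTG was found in none of the 11, a count of 0, and in 6.02% of all windows. The NBRE, AAAGGTCA, which NR4A receptors bind, was likewise found in 0 of the 11 and in 1.34% of all. CCAAT was found in 3 of the 11 (33.9% of all windows) and TATAAA in 1 (12.4% of all), again on both strands. These matches describe the letters only, and no binding was measured.

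Pcsk2 encodes the convertase that finishes proinsulin and makes glucagon from proglucagon. The probe used for it, the one with the higher mean signal, A_51_P229613 (mm9 chromosome 2, 143639649 to 143639708, plus strand), gave a log2 signal of 8.08 and 7.80 with vehicle and of 8.58 and 8.53 with GKA. Both GKA arrays thus lay above both vehicle arrays, by a gap of 0.45. The log2 fold change was 0.62 ± 0.14 (adjusted p = 0.0417 in limma), or 1.53-fold. This call was lost when any 1 of the 4 arrays was left out (0.48 to 0.76, adjusted p up to 0.158) and with the replicate number as a block (adjusted p = 0.056). It was also lost without scaling (0.23), with quantile normalization (0.47), and with spike-in scaling (0.073).

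The 2 Pcsk2 probes gave different values. The other one, A_55_P1972963, lies 2207 bases further along the chromosome (143641856 to 143641915) and stood at 4.72 and 4.63 with vehicle and 4.66 and 4.80 with GKA, so its groups overlapped. Its log2 fold change was 0.055 ± 0.12 (adjusted p = 0.784 in limma over 22139 probes), with an interval from -0.26 to 0.37, against 0.26 to 0.97 for the first. With the mean of both, Pcsk2 stood at 0.34 and did not pass (adjusted p = 0.118). The difference between the probes was 3.35 and 3.17 with vehicle and 3.92 and 3.72 with GKA, without overlap. Which transcript forms each probe reads was not tested.

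Scg5 encodes 7B2, the chaperone that brings the Pcsk2 product to its active form. Its log2 signal was 6.57 and 6.66 with vehicle and 7.02 and 6.93 with GKA, on a probe at mm9 chromosome 2, 113616781 to 113616840, minus strand. The groups did not overlap, as in 65.9% of all genes tested, and the log2 fold change of 0.36 ± 0.12 did not pass (adjusted p = 0.09 in limma). The interval ran from 0.07 to 0.66. With normexp background correction Scg5 passed (0.36 and adjusted p = 0.0394 with quantile scaling), and on unscaled (-0.021) or spike-in scaled values (-0.18) its sign turned. The unscaled intensities, 71151 and 76288 against 72367 and 72805, overlapped.

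Pcsk1n encodes proSAAS, a granin-like protein that yields an inhibitor of the Pcsk1 product. It stood at 6.49 and 6.32 with vehicle and at 6.64 and 6.43 with GKA. The groups overlapped, and the log2 fold change was 0.12 ± 0.14 (adjusted p = 0.553 in limma), with an interval from -0.22 to 0.47. The probe lies on mm9 chromosome X at 7500267 to 7500326, and the value turned to -0.26 without scaling and to -0.42 with spike-in scaling. The interval of Pcsk1n lies below that of Pcsk1, whose lower end was 1.34. The difference between these genes was not tested.

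Pam, which encodes the copper-dependent enzyme that amidates peptides such as amylin, had the largest fold change of the 9. With vehicle its log2 signal was 0.90 and 1.35, and with GKA 2.88 and 3.32, from deposited intensities of 1402 and 1930 against 4103 and 5974. The gap between the groups was 1.53 and the spreads within them were 0.45 and 0.44. In limma the log2 fold change was 1.97 ± 0.22 (adjusted p = 0.00971), with an interval from 1.41 to 2.53. Leaving out GKA replicate 2 ended the call (1.75, adjusted p = 0.0598), and leaving out any other array did not. The single probe, A_55_P1969156, lies on mm9 chromosome 1 at 99718052 to 99718111, minus strand. Slc31a1, a copper importer, was one of 5 measured genes of copper supply and rose by 0.60 ± 0.12 (adjusted p = 0.0306 in limma), a call lost when any 1 array was left out, with no scaling or spike-in scaling, and with the replicate block (adjusted p = 0.0561). The other 4 genes of that list did not pass, and the list's median was -0.069.

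Cpe removes the basic residues that the granule convertases leave behind. Of its 3 probes, the one used for the gene stood at 8.53 and 8.47 with vehicle and at 8.84 and 8.70 with GKA. The groups did not overlap, but the log2 fold change of 0.27 ± 0.12 did not pass (adjusted p = 0.172 in limma; interval -0.03 to 0.57). The other 2 probes gave 0.26 and 0.33, so all 3 pointed the same way over 14052 bases of mm9 chromosome 8 (probe starts from 67071349). The direction depended on the scaling: the unscaled intensities were 277897 and 268044 with vehicle and 254668 and 248795 with GKA, so without scaling Cpe stood at -0.12, and with spike-in scaling at -0.28.

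Cpd encodes a carboxypeptidase of the trans-Golgi network that does the same trimming outside granules. The probe used for it (mm9 chromosome 11, 76595750 to 76595809) stood at 0.60 and 0.85 with vehicle and at 0.25 and 0.43 with GKA. The log2 fold change was -0.39 ± 0.14 and did not pass (adjusted p = 0.122 in limma), whereas the second probe, 5040 bases away, gave 0.10 ± 0.11 (adjusted p = 0.565). The signs of the probes differed. Cpd passed without scaling (-0.77) and with spike-in scaling (-0.93), where the median of all genes was also below 0.

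**Figure D2:**
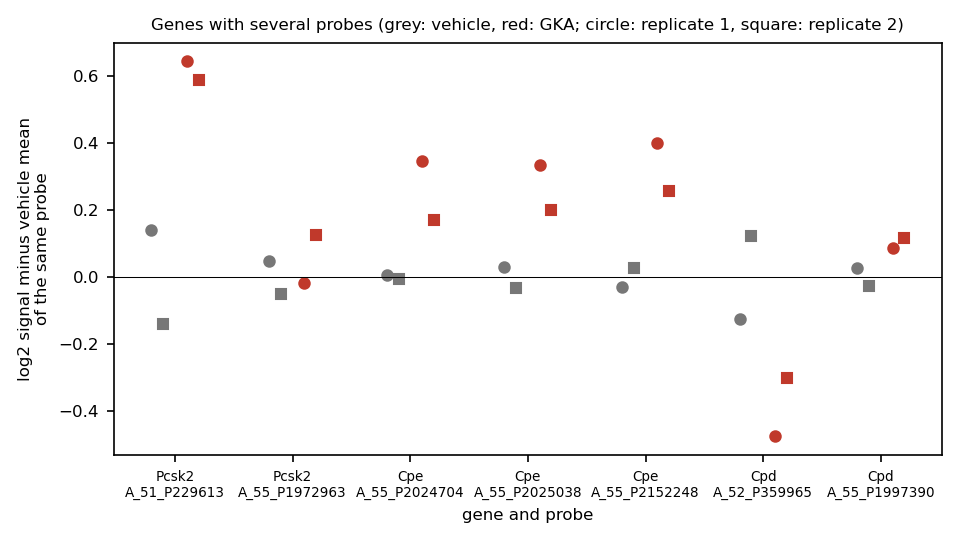
Log2 signal of each probe relative to its own vehicle mean (y axis) for the 3 genes with several probes (x axis); grey points are vehicle arrays and red points GKA arrays. The Pcsk2 probes differ (0.62 and 0.055), the Cpe probes lie at 0.26 to 0.33, and the Cpd probes lie on opposite sides of 0 (-0.39 and 0.10).

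The remaining convertases work along the constitutive route, in the trans-Golgi network and at the cell surface, where they cut growth factors, receptors and matrix proteins. Pcsk6 encodes PACE4, which activates TGF-beta family ligands. It stood at 1.87 and 1.81 with vehicle and at 0.81 and 0.95 with GKA, from deposited intensities of 2746 and 2646 against 977 and 1152. The vehicle arrays lay above the GKA arrays by a gap of 0.86, with spreads of 0.06 and 0.13. The log2 fold change was -0.96 ± 0.12 (adjusted p = 0.0121 in limma; interval -1.26 to -0.66). It fell in the same direction under every scaling tried (-1.51 to -0.93) and its call was lost when either GKA array was left out (adjusted p = 0.0629 for replicate 1, 0.0681 for replicate 2). The probe lies on mm9 chromosome 7 at 73195141 to 73195200, plus strand.

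Furin, the most widely expressed convertase, is encoded on the same chromosome (probe at 87534082 to 87534141, minus strand). Its vehicle arrays stood apart from each other, at 1.26 and 0.71, and the GKA arrays lay between them, at 0.89 and 0.94. The log2 fold change was -0.072 ± 0.20 (adjusted p = 0.825 in limma; interval -0.58 to 0.44). It was 0.20 without vehicle replicate 1, and with spike-in scaling it was -0.62 and passed (adjusted p = 0.0486).

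Pcsk5, whose product acts on integrins and TGF-beta family ligands, was not well above background on any of the 4 arrays. Its deposited intensities were 8.15 and 9.21 with vehicle and 11.5 and 7.10 with GKA. It has only a bound in both groups, so no fold change is given. The probe spans 17638365 to 17639236 on mm9 chromosome 19.

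**Figure D3:**
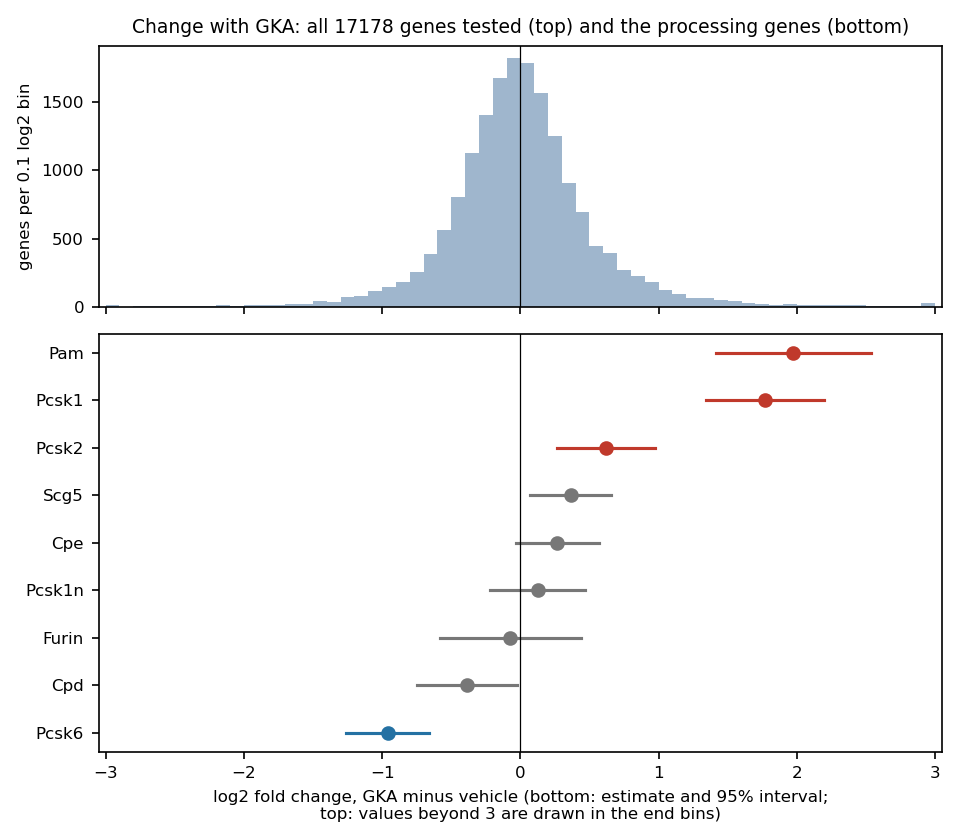
Distribution of log2 fold changes (x axis) over the 17178 genes tested (top, genes per bin of 0.1) and the estimate with its 95% interval for each processing gene (bottom; red rose, blue fell, grey did not pass). Pam (1.97) and Pcsk1 (1.77) lie in the right tail and Pcsk6 (-0.96) in the left, while Furin (-0.072) lies near the centre.

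Across the 9 genes the groups of arrays did not overlap in 7, 5 of them higher and 2 lower with GKA, where 32.4% of all genes were higher and 33.5% lower without overlap. Pam, Pcsk1 and Pcsk6 kept their direction under every setting shown in the plot of settings, from 1.43 to 2.20 for Pam, from 1.23 to 1.94 for Pcsk1 and from -1.51 to -0.89 for Pcsk6. Without the filter on dim probes none of the 10 passed, a count of 0, in limma over 26263 genes. The adjusted p then was 0.0524 for Pcsk1, 0.0632 for Pam and 0.0745 for Pcsk6, and 4 members had an unadjusted p under 0.05, as had 5984 of the 26263 genes. With the filter 6 members had one, against 36.1% of all genes. The authors' deposited table, which holds 1 unscaled ratio of GKA over control per probe, gives 3.02 for Pam, 2.64 for Pcsk1, 1.17 and 0.799 for the first and second Pcsk2 probe, 0.985 for Scg5, 0.922 for the Cpe probe used here, 0.834 for Pcsk1n, 0.717 for Furin, 0.586 for the Cpd probe used here and 0.395 for Pcsk6.

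**Figure D4:**
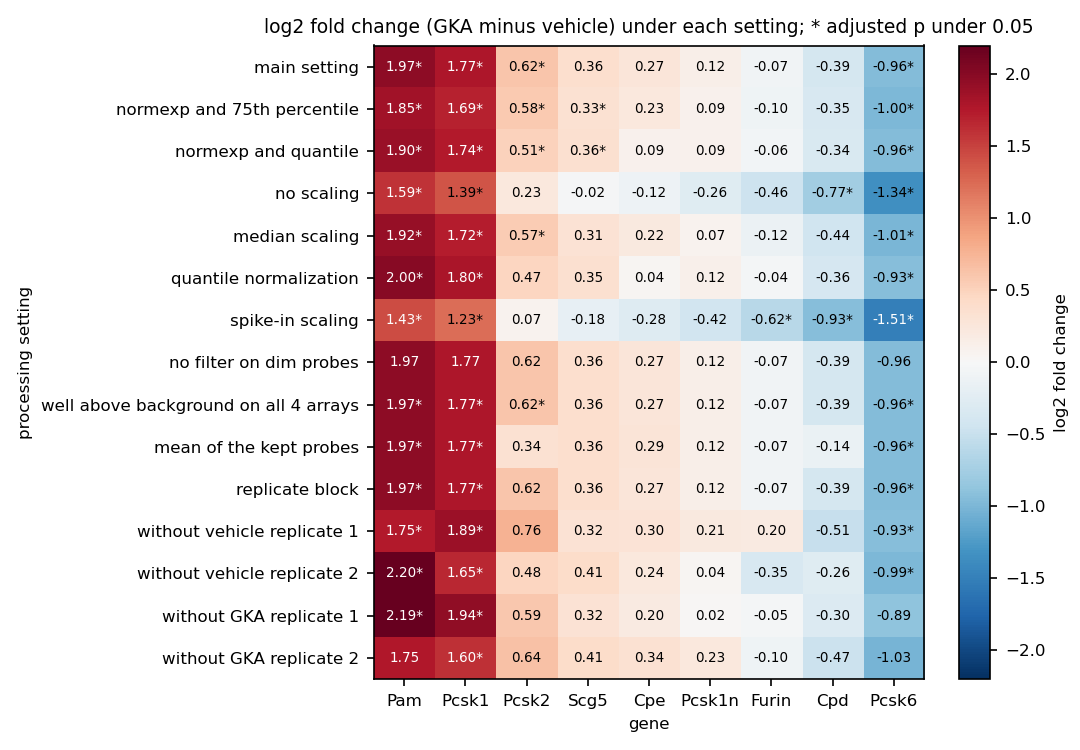
Log2 fold change of each processing gene (columns) under each processing setting (rows), with colour and number giving the value and an asterisk marking an adjusted p under 0.05 in limma. Pam and Pcsk1 are above 0 and Pcsk6 below 0 in every row, and Scg5, Cpe and Pcsk1n change sign without scaling and with spike-in scaling.

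Genes that act just before the convertases were also among the called genes. Of 14 measured genes of the signal peptidase and the ER translocon, which thread precursors into the ER and cut off their signal peptide, 10 rose and 0 fell, with a median of 0.74, against 9.11% of all genes that rose and a median of -0.013. Ssr3, a subunit of the translocon-associated complex, rose by 1.05 ± 0.13 (adjusted p = 0.012 in limma). Spcs2, a signal peptidase subunit, rose by 1.01 ± 0.12 (adjusted p = 0.0114) and Sec61a1, the channel itself, by 0.99 ± 0.11 (adjusted p = 0.01). All 14 had a value above 0 on the main scale, 12 without scaling and 10 with spike-in scaling. The count of 10 was 5 without scaling and 0 with spike-in scaling, where 750 and 434 of all 17178 genes passed as higher. Fewer of the 14 passed with 1 array left out. All 14 values then stayed above 0, with a median from 0.65 to 0.73.

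The precursors that the convertases cut moved in part. Among 28 precursors, 13 passed as higher and 0 as lower, against 9.11% and 8.01% of all genes tested. The median of the 28 was 0.70. Tac1, which encodes substance P, rose by 2.98 ± 0.18 (adjusted p = 0.00341 in limma), Pdyn, the dynorphin precursor, by 2.74 ± 0.14 (adjusted p = 0.00297), and Scg3, a granin, by 1.55 ± 0.12 (adjusted p = 0.00508). These 3 passed without each array in turn. The insulin and glucagon precursors did not pass. Ins1 stood at 0.31 ± 0.12 (adjusted p = 0.134 in limma), Ins2 at 0.25 ± 0.11 (adjusted p = 0.171) and Gcg at 0.31 ± 0.12 (adjusted p = 0.129). Each of these had a negative value on unscaled and on spike-in scaled data. Sst, the somatostatin precursor, did pass, at 0.83 ± 0.13 (adjusted p = 0.0198 in limma), a call lost with spike-in scaling. The count of 13 was 11 without scaling and 10 with spike-in scaling, where 750 and 434 of all 17178 genes passed as higher. Fewer precursors passed with 1 array left out, where the median of the 28 ranged from 0.65 to 0.83.

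The other steps of the route are given by their counts, to be read against the 9.11% of all genes that rose and the 8.01% that fell. Among the other proprotein convertases Pcsk4 fell by 0.89 on the log2 scale (SE 0.21, adjusted p = 0.0438 in limma), from 1.19 and 0.61 to 0.013 and -0.0044, and Pcsk7 and Mbtps1 did not pass. The Pcsk4 call held when vehicle replicate 2 was left out and was lost when any of the other arrays was, and with the replicate block (adjusted p = 0.0569 in limma). Of 7 other carboxypeptidases and end-modifying enzymes 1 rose, Qpctl, a glutaminyl cyclase of the Golgi (0.59 ± 0.15, adjusted p = 0.0497). In the 19 genes that acidify granules 1 rose, the proton pump subunit Atp6ap2 (0.49 ± 0.11, adjusted p = 0.0433), with a median of 0.018. Of 16 genes of sorting and trans-Golgi traffic 1 rose, the adaptor subunit Ap1g1 (0.48 ± 0.11, adjusted p = 0.0441). None of 8 genes for lysosomal proteases and the insulin-degrading enzyme passed, a count of 0 in limma, among them Ctsb at 0.39 and Ctsl at -0.084. The calls of Qpctl, Atp6ap2 and Ap1g1 were lost when any 1 array was left out, on unscaled values and with median scaling, spike-in scaling or the replicate block, and that of Atp6ap2 also with quantile normalization. On unscaled values 9 of the acidification genes and 6 of the sorting genes passed as lower. These counts are to be read against 7654 of all 17178 genes that passed as lower on unscaled values, not against the 8.01%. The values of Atp6ap2 and Ap1g1 turned below 0 with spike-in scaling (-0.057 and -0.068).

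Of 23 measured genes for proteins that furin-type convertases mature, 3 rose and 1 fell, with a median of -0.066, which is close to the 17.1% of all genes called in either direction. The sorting receptor Sorl1 (1.00 ± 0.13, adjusted p = 0.0125 in limma), the growth factor receptor Igf1r (1.04 ± 0.14, adjusted p = 0.0143) and the ligand Bmp4 (0.77 ± 0.13, adjusted p = 0.0207) rose, and the growth factor Pdgfa stood at -0.49 ± 0.11 (adjusted p = 0.043). Without GKA replicate 1 or without GKA replicate 2 none of these 4 calls held, and that of Pdgfa was also lost without either vehicle array and that of Bmp4 without vehicle replicate 2. Spike-in scaling ended the calls of Sorl1 (0.46), Igf1r (0.49) and Bmp4 (0.23), and that of Bmp4 was also lost on unscaled values (0.39) and with normexp and quantile scaling (0.20). The replicate block ended the call of Pdgfa (adjusted p = 0.0646 in limma).

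**Figure D5:**
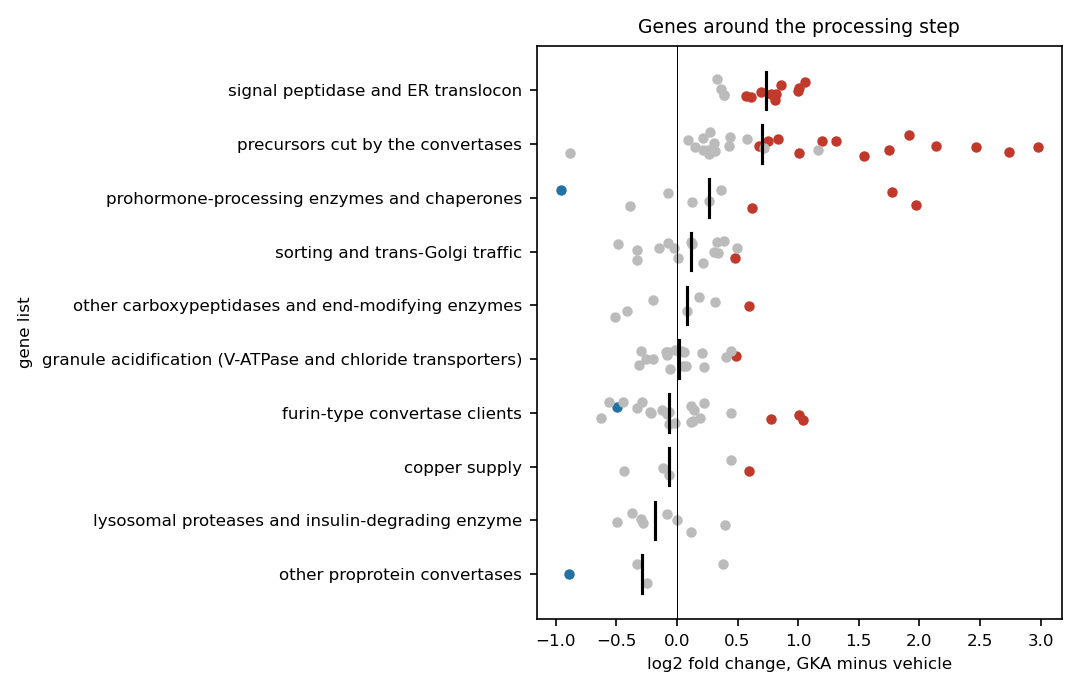
Log2 fold change (x axis) of every measured gene in the processing list and in 9 lists of neighbouring steps (y axis); red points rose, blue fell and grey did not pass, and the black bar is the median of each list. The signal peptidase and translocon genes (median 0.74) and the precursors (median 0.70) lie to the right, and the granule acidification genes lie around 0 (median 0.018).

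In whole islets, fewer cells of a type and less RNA per cell cannot be told apart. All 10 beta-cell markers, 7 alpha-cell markers, 4 delta-cell markers and Ppy were measured. So were all 10 endothelial markers and 13 of 15 leukocyte markers, so being measured does not test the label of the tissue. The summed signals given below were higher for the beta-cell, alpha-cell and delta-cell lists than for the lists of other cell types. Beta-cell markers rose in 3 of 10 and fell in 0, against 9.11% of all genes that rose and 8.01% that fell. G6pc2 (1.94), Mafa (1.06) and Pdx1 (1.11) rose, and the other 7 did not pass, with Slc30a8 at -0.067. The summed signal of the beta-cell markers, in units of the array's 75th percentile, was 1153 to 1163 with vehicle and 1420 to 1452 with GKA. The same sum was 409 to 454 and 516 to 569 for alpha cells, and 190 to 200 and 293 to 358 for delta cells. The sums were taken on the main scale only. The median log2 fold change of the beta-cell markers was 0.33 on that scale, -0.057 without scaling and -0.22 with spike-in scaling. For alpha-cell markers it was 0.31, -0.078 and -0.24, and for delta-cell markers 0.42, 0.038 and -0.12. Of 13 leukocyte markers 6 fell and 1 rose (sum 11.8 to 14.1 with vehicle, 10.5 to 11.8 with GKA), against 8.01% of all genes that fell. The count of 6 was 2 or 5 when vehicle replicate 1 or 2 was left out, and 2 or 1 when GKA replicate 1 or 2 was left out. Acinar markers rose in 2 of 7 and fell in 0 (sum 4.93 to 5.37 and 11.3 to 11.9), against the same 9.11% of all genes that rose. Of the 14 acinar markers on the array 7, Cela2a, Cela3b, Cpa1, Cpb1, Pnlip, Prss2 and Ptf1a, were not above background on any array. The beta-cell count of 3 was 1 when either GKA array was left out, and the acinar count of 2 was 1 when any 1 array was. Duct markers rose in 1 of 8 (Spp1, 2.26) and fell in 2 (Krt7, -0.79, and Cldn4, -0.81). Their sum was 30.9 to 34.3 with vehicle and 30.3 to 36.4 with GKA. Endothelial markers rose in 1 of 10 and fell in 1 (sum 16.8 to 17.0 and 16.6 to 18.1). Fibroblast markers rose in 1 of 9 and fell in 1 (sum 10.1 to 13.0 and 9.05 to 10.2). Schwann and neural markers rose in 2 of 6 and fell in 1 (sum 2.55 to 2.63 and 4.04 to 4.17). Some of these calls were lost with 1 array left out. The part of these shifts in the values of the processing genes was not tested.

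The genes most like a member were taken as those with the smallest root mean square difference in deviation from the 4-array mean, among 12584 genes that were well above background on all arrays and whose symbol is not a clone or locus name. For Pam they were Cthrc1 (0.086 on the log2 scale), Xdh (0.15) and Slitrk6 (0.15), which rose by 1.95, 2.02 and 1.86. On the vehicle arrays Cthrc1 stood at -5.43 and -5.19, Xdh at -4.63 and -4.09 and Slitrk6 at 0.14 and 0.27, against 0.90 and 1.35 for Pam. The lowest values of a probe well above background on these arrays were -5.91 and -5.96. For Pcsk6 the most similar genes were Adora2b, Katnal2 and Jakmip1 (0.025 to 0.029), with log2 fold changes of -0.92, -0.92 and -0.995. With normexp and the 75th percentile Katnal2 stood at -0.13 and did not pass (adjusted p = 0.343 in limma), and with normexp and quantile scaling Cthrc1 stood at 0.72 and Xdh at 0.88. For Cpe, taken for its signal, they were Mapkapk5, Lrp10 and Styxl1 (0.0059 to 0.0094). With 4 arrays, many genes share such a pattern, and the likeness is a description only.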

How the data were processed

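Gene expression was measured on single-colour Agilent arrays in 2 vehicle and 2 GKA samples of mouse islets. The deposited intensity of each spot, background-subtracted and detrended, was made with Agilent Feature Extraction 10.7.3.1 per the file headers, while the submitters' processing notes name 9.1. It was not scaled between arrays. The ratio of GKA over control in the authors' deposited table equalled the quotient of its group intensities within 0.1%.

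Control spots and outlier-marked spots were left out, spots of a probe were averaged as log2 of the deposited intensity, and each array's 75th percentile was subtracted. A probe was kept where both arrays of a group showed it well above background, and each gene took its probe with the highest mean signal. Gene names are those of the authors' deposited table, and coordinates are probe positions on mm9. Genes were compared with limma 3.58.1 (lmFit and eBayes, R 4.3.3), two-sided, and the script was tested on simulated data. The residual degrees of freedom were 2. The number of arrays limits the precision.

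The array files hold no mean signal, so normexp (offset 50) was run on the median signal, an alternative chosen after seeing the data. Slide could not serve as a block, since all arrays lay on 1 slide. Promoter windows come from RefSeq (GRCm38.p6), where 9 of the 10 members matched. The members and lists were chosen with earlier results of these data known. Genes to be named were all members, up to 3 called genes per direction of each list (or the 2 brightest where none was called), Ins1, Ins2 and Gcg, and the 3 genes most like each of 3 members. Pcsk7, Mbtps1, Sst and the marker genes were named outside this rule, after their values were seen. Some genes of the lists are not reported here.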

Additional observations from a re-analysis of the deposited data

How the results depend on the processing

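Pam, Pcsk1 and Pcsk6 kept their direction in all 14 alternatives with a test, and they passed in 12, 13 and 11 of them, while Pcsk2 passed in 4. The count of called members was 4, and it was 0 without the filter on dim probes and ranged from 1 to 3 when 1 array was left out (1 without GKA replicate 2 and 2 without GKA replicate 1). The count of called genes was 2941. It was 5045 with normexp and the 75th percentile, 8404 without scaling, 8010 with spike-in scaling, 223 without the filter on dim probes and 1916 with the replicate block, and 384 to 2442 when 1 array was left out. Called probes numbered 3749, and in the same order 6505, 10874, 10394, 297 and 2498, and 383 to 2934. The labels number the samples of each group 1 and 2, but these numbers are not stated to pair samples: the deviations of the first samples from their group means correlated with r = 0.075 across genes. The block ended the call of Pcsk2 and of no other member, and those of Pcsk4, Qpctl, Atp6ap2, Slc31a1, Pdgfa and Ap1g1 among the other named genes.

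Signs turned without scaling for Pcsk1n (-0.26), Scg5 (-0.021), Cpe (-0.12), Ins1 (-0.075), Ins2 (-0.13), Gcg (-0.078), Mapkapk5 (-0.11), Lrp10 (-0.13) and Styxl1 (-0.10). They turned with spike-in scaling for Pcsk1n (-0.42), Scg5 (-0.18), Cpe (-0.28), Atp6ap2 (-0.057), Ctsb (-0.15), Ap1g1 (-0.068), Ins1 (-0.24), Ins2 (-0.29), Gcg (-0.24), Mapkapk5 (-0.27), Lrp10 (-0.29) and Styxl1 (-0.26). With 1 array left out, Furin ranged from -0.35 (without vehicle replicate 2) to 0.20 (without vehicle replicate 1) and Ctsl from -0.20 (without vehicle replicate 1) to 0.033 (without vehicle replicate 2). Ins1 stood at 0 with normexp and quantile scaling. Quantile scaling gives a probe of equal rank on every array the same value, so a value of 0 can follow from rank alone. With spike-in scaling limma gave every gene the same error, 0.27, so its p-values rest on a spread shared by all genes. The filter on dim probes changes how many genes share the fit, 17178 with it and 26263 without. Other causes were not tested. Signal over background limits Pcsk5, and the lowest log2 value of a probe well above background ranged from -5.96 to -5.46 between arrays.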
